A study of Mus musculus with 6 samples.

Results

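The 7 genes Igfbp1 to Igfbp7, which encode the insulin-like growth factor (IGF) binding proteins, the insulin receptor gene Insr and the insulin receptor substrate genes Irs1 and Irs2 were followed in mouse liver after interruption of nitisinone (NTBC). They were chosen by name, and each of the 10 was matched by symbol to a probe set of the array's annotation, out of 22180 genes with a probe set of their own. For a gene with several, the brightest by its mean log2 signal over all 6 arrays was taken. The withdrawal group (3 arrays) held male mice of the C57Bl/6J background with the FAH5981SB point mutation of Fah, from which NTBC was removed for 7 days from 11 weeks of age. The continuous group (3 arrays) held male mice of the same background and mutation that kept NTBC at 8 mg/l in drinking water. All livers were taken at 12 weeks. All mice received chow low in tyrosine and phenylalanine, and the labels list 3% dextrose in the water without saying whether it went on during withdrawal. Fah encodes fumarylacetoacetate hydrolase, the last enzyme of tyrosine breakdown, and NTBC blocks this pathway further upstream, at the enzyme encoded by Hpd. Both groups lack a working Fah gene, so no comparison here is with a liver that has the enzyme.

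IGF-I and IGF-II are small hormones related to insulin, and the liver is the main source of circulating IGF-I. IGF binding proteins are secreted carriers that hold IGFs in blood and tissue and set how much reaches the IGF-I receptor. Most circulating IGF-I travels in a ternary complex with IGFBP-3 and the acid-labile subunit, while IGFBP-1, made by hepatocytes, is lowered by insulin from hour to hour. Inside the cell, the insulin receptor phosphorylates IRS-1 and IRS-2, which dock phosphoinositide 3-kinase, and the kinase AKT below it keeps the transcription factor FOXO1 out of the nucleus. In mouse liver Igfbp1 and Irs2 are known FOXO1 targets.

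After withdrawal Igfbp1 and Irs1 rose, Igfbp2 and Igfbp4 fell, and the other 6 genes did not pass the test. Log2 signals of all 34472 probe sets were compared with limma's moderated test (two-sided), and adjusted p-values (Benjamini-Hochberg over the whole array) were held against a threshold of 0.05. Of the 10 genes 2 were higher, where 6.21% of all probe sets were, and 2 were lower, where 3.20% were. In either direction it was 4 of 10 (40.0%) against 9.40% of all probe sets. The 10 genes are brighter than most, from the 59.4th to the 99th percentile of mean signal. How often probe sets passed at each brightness was not counted. In a refit with dim probe sets left out 4020 of 17236 passed, and of the 10 genes 2 were higher and 3 lower. That refit also adjusts over fewer tests, so its share does not reflect brightness alone. The median log2 change of the 10 was -0.26, beside -0.08 over all probe sets. These genes are a small family chosen by name, so the shares describe them and test nothing. Of the 10 genes 7 had fully separate groups, as did 27.6% of all probe sets. The labels call the arrays of each group biological replicates, but none says which animal an array came from. The p-values therefore speak only of the spread among these 6 arrays.

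**Figure D1:**
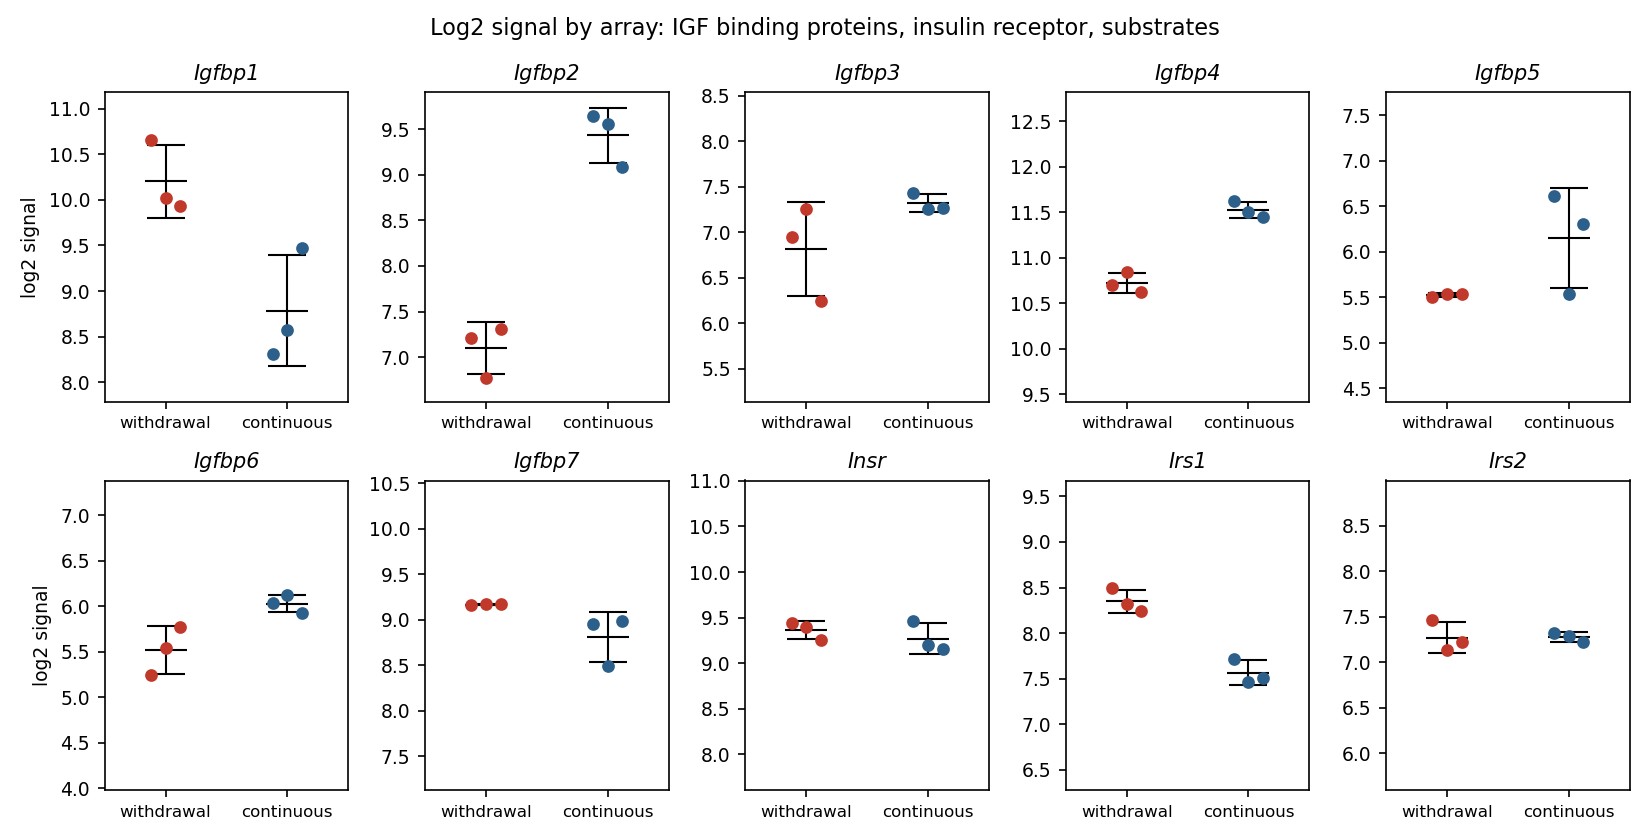
Log2 signal (vertical axis, a window of the same height in each panel) of the 10 genes on each array, with the 3 withdrawal arrays in red on the left and the 3 continuous NTBC arrays in blue on the right. Bars give the mean and SD of each group. The withdrawal arrays lie above the continuous arrays for Igfbp1, Igfbp7 and Irs1 and below them for Igfbp2, Igfbp3, Igfbp4 and Igfbp6.

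The arrays carry liver RNA by their markers. The log2 signal of Alb, which encodes serum albumin, was 14.12 ± 0.01 after withdrawal and 14.17 ± 0.06 with continuous NTBC (SD, n = 3 each). Fah had 7.66 ± 0.23 after withdrawal and 7.82 ± 0.42 with continuous NTBC (log2 change -0.15, SE 0.22, adjusted p = 0.718), and its mutation is present in both. Hpd, the enzyme NTBC inhibits, was lower after withdrawal, at 12.02 ± 0.06 against 12.66 ± 0.14 with continuous NTBC (adjusted p = 0.0211). Median log2 signals of the arrays ran from 5.21 to 5.39 after withdrawal and from 5.29 to 5.44 with continuous NTBC. Of 3241 probe sets past the threshold 2139 (66.0%) were higher after withdrawal, a share of 77.2% after median centring of the arrays, 58.3% after quantile normalization and 59.8% with array weights. Without withdrawal replicate 1 the 3241 became 1454, without withdrawal replicate 2 1795 and without continuous replicate 2 2078. No value in the table is 0, and it has no detection flags, so a low signal does not say that a transcript was absent.

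Igfbp2 had the largest change of the 10 genes and was 5.05-fold lower after withdrawal. It encodes a carrier made by the liver throughout life. The arrays read 7.21, 6.77 and 7.31 (log2 signal) on withdrawal replicates 1 to 3, against 9.65, 9.56 and 9.09 on continuous replicates 1 to 3. All withdrawal arrays were low, and the lowest continuous array stood 1.78 above the highest withdrawal array. The log2 change was -2.34 (SE 0.20, 95% interval -2.79 to -1.89, adjusted p = 9.15e-05 by limma). It passed under each of the 15 alternatives run for it, with changes from -2.51 to -2.17. Among all genes, the 3 whose centred log2 signals over the 6 arrays lay nearest to those of Igfbp2 were Gm4450, a predicted gene, Nox4, an NADPH oxidase, and Nudt7, a peroxisomal enzyme that cleaves coenzyme A. Their root mean square differences from Igfbp2 were 0.15, 0.17 and 0.24 log2 units, and each was lower after withdrawal (-2.48, -2.32 and -2.29). This likeness over 6 arrays mostly restates the size of the group difference.

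Igfbp1 rose 2.68-fold. It encodes the carrier that hepatocytes secrete in fasting and stress. Log2 signals were 10.66, 10.02 and 9.93 on the withdrawal arrays, against 8.31, 8.57 and 9.47 on the continuous arrays. The groups did not overlap, with a gap of 0.46, and continuous replicate 3 lay nearer to the withdrawal arrays than the other continuous arrays did. The log2 change was 1.42 (SE 0.30, 95% interval 0.76 to 2.08, adjusted p = 0.0137 by limma). Igfbp1 no longer passed without withdrawal replicate 1 (1.19, adjusted p = 0.0614) or without continuous replicate 2 (1.31, adjusted p = 0.0637).

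Igfbp4, a carrier that mostly inhibits IGF action and is cut by the protease PAPP-A, was 1.75-fold lower after withdrawal. Signals of 10.70, 10.84 and 10.62 on the withdrawal arrays stood against 11.62, 11.50 and 11.45 on the continuous arrays (log2). Each group spanned little, 0.22 after withdrawal and 0.17 with continuous NTBC, and the gap between them was 0.61. The log2 change was -0.80 (SE 0.14, 95% interval -1.12 to -0.48, adjusted p = 0.00655 by limma). It passed with any 1 array left out, with adjusted p up to 0.0427.

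Igfbp3, the carrier of the ternary complex, did not pass (log2 change -0.50, 95% interval -1.02 to 0.01, adjusted p = 0.223 by limma). Its log2 signal was 6.95, 7.25 and 6.25 after withdrawal and 7.43, 7.26 and 7.27 with continuous NTBC. The withdrawal arrays spread over 1.0 and the continuous arrays over 0.17, and the groups were 0.01 apart. Without withdrawal replicate 3 the change was -0.22. The change of Igfbp1 exceeded that of Igfbp3 by 1.92 on the log2 scale, with within-array differences of 3.71, 2.77 and 3.68 after withdrawal and 0.88, 1.31 and 2.20 with continuous NTBC. The groups were fully separated, and the exact two-sided permutation test gave p = 0.1, the smallest that 3 arrays against 3 allow.

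Igfbp5, whose protein binds extracellular matrix, had log2 signals of 5.50, 5.54 and 5.54 after withdrawal and 6.61, 5.54 and 6.31 with continuous NTBC. The withdrawal arrays were nearly level, and continuous replicate 2 stood with them. The change of -0.63 (95% interval -1.16 to -0.09) had adjusted p = 0.146 by limma, and without continuous replicate 2 it was -0.93 with adjusted p = 0.0132. Igfbp6, a carrier that prefers IGF-II, had 5.24, 5.54 and 5.77 after withdrawal and 6.03, 6.12 and 5.93 with continuous NTBC. Its groups were separated by 0.16, with a change of -0.51 (95% interval -0.89 to -0.13, adjusted p = 0.0933 by limma). Igfbp6 passed once dim probe sets were left out (adjusted p = 0.0471) and with array weights (adjusted p = 0.0285). The lower quartiles of the arrays were 4.03 to 4.16 after withdrawal and 4.11 to 4.26 with continuous NTBC, and a fold measured near that level can be compressed.

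Igfbp7 encodes a secreted relative with low affinity for IGFs that is abundant in vascular endothelium. Its log2 signal was 9.16, 9.17 and 9.17 after withdrawal and 8.95, 8.49 and 8.99 with continuous NTBC. The withdrawal arrays were level and above all continuous arrays by at least 0.17, and the change of 0.36 (95% interval -0.02 to 0.73) did not pass (adjusted p = 0.234 by limma). On the same arrays 3 of 14 sinusoidal endothelial markers rose and none fell, namely Lyve1 (1.07), Clec4g (0.81) and Gpr182 (0.83), and 13 of the 14 had a positive change. Over the array 6.21% of probe sets were higher. Clec4g passed with any 1 array left out, and it was the 1 marker that passed after quantile normalization and without withdrawal replicate 1, 2 or 3 or continuous replicate 2. Without continuous replicate 3 Lyve1 passed as well, with array weights 6 markers passed, and with signals raised to the lower quartile Clec4g and Oit3 did. Their summed linear signal ran from 3501 to 3607 after withdrawal and from 2479 to 2982 with continuous NTBC. Of 14 stellate and portal fibroblast markers 0 passed in limma, with 4 at an unadjusted p under 0.05. With array weights Lrat and Hgf passed upward. The stellate and portal fibroblast sums overlapped, from 2529 to 3086 after withdrawal and from 2126 to 2863 with continuous NTBC. Of 5 mesothelial markers 0 passed in limma, with 4 at an unadjusted p under 0.05. The share of all probe sets under that unadjusted cut was not computed, so such counts cannot be set against the array. Mean signals of the mesothelial markers lay between percentile 45.1 (Msln) and 72.5 (Upk3b). Upk3b passed after quantile normalization, Upk3b and Wt1 with array weights, and Wt1 without continuous replicate 1. All 5 had negative changes (median -0.51), and their summed signals did not overlap (209 to 237 after withdrawal, 283 to 416 with continuous NTBC). The part of these cell types in the values of Igfbp3, Igfbp5, Igfbp6 and Igfbp7 was not tested. In whole liver, fewer cells of a type and less RNA per cell cannot be told apart.

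**Figure D2:**
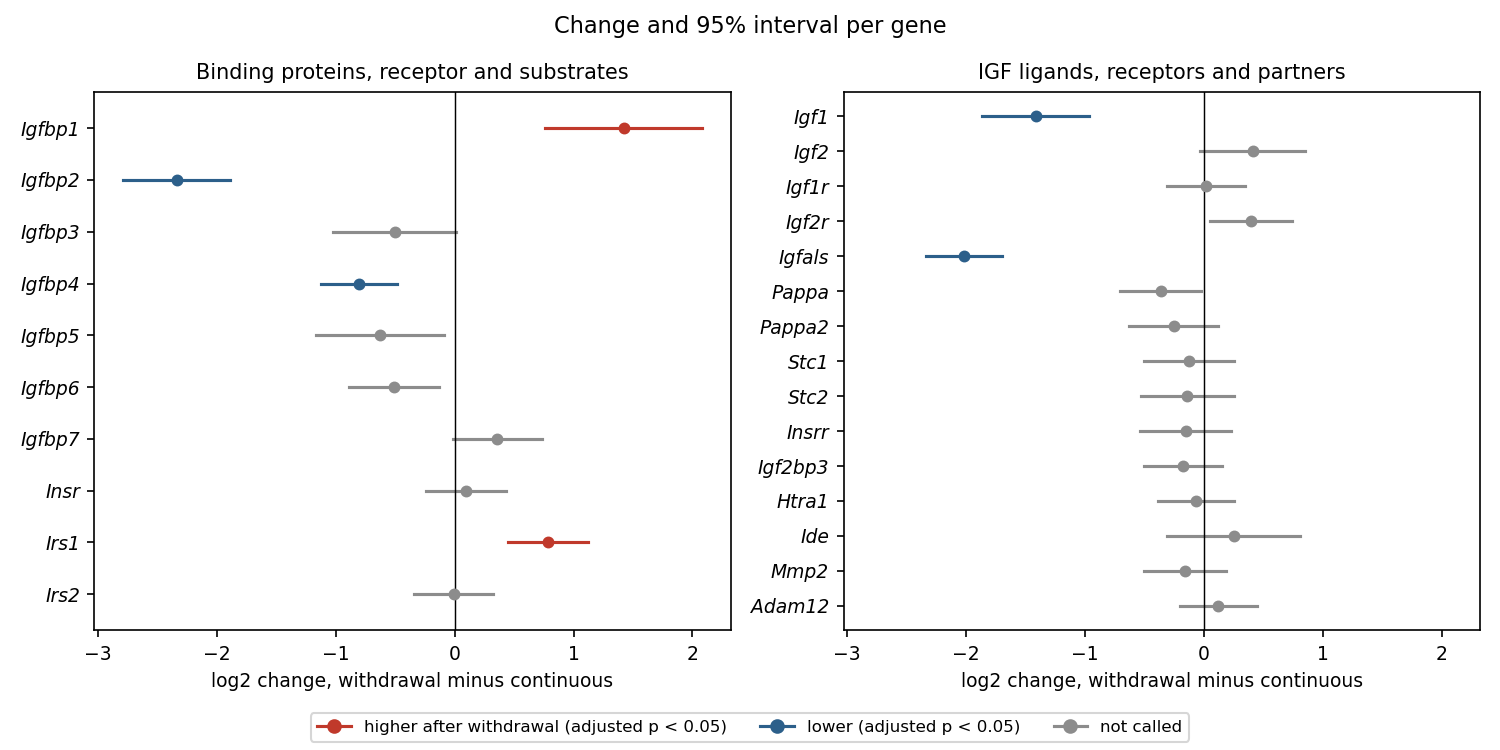
Log2 change, withdrawal minus continuous NTBC (horizontal axis), with its 95% interval from limma, for the 10 genes (left) and for 15 ligands, receptors and partners of the IGF system (right). Red marks genes that passed upward, blue downward and grey those that did not pass. Igfbp2, Igfals and Igf1 lie farthest to the left and Igfbp1 farthest to the right.

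Irs1, the docking protein of the insulin and IGF-I receptors, rose 1.73-fold. Its log2 signal was 8.49, 8.32 and 8.24 on the withdrawal arrays and 7.72, 7.46 and 7.51 on the continuous arrays. Every withdrawal array was above every continuous array, by at least 0.52. The log2 change was 0.79 (SE 0.15, 95% interval 0.45 to 1.12, adjusted p = 0.00916 by limma). Without withdrawal replicate 1 it was 0.72 with adjusted p = 0.0649. A separate Irs1 probe set of lower signal gave 6.16, 6.11 and 6.36 after withdrawal and 5.63, 5.84 and 5.80 with continuous NTBC. It was also fully separated, with a change of 0.45 that did not pass (adjusted p = 0.0904 by limma).

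Irs2, the other substrate and the main one for insulin's effects on liver glucose output in mice, had log2 signals of 7.46, 7.13 and 7.22 after withdrawal and 7.32, 7.29 and 7.22 with continuous NTBC. The groups overlapped throughout. The change was -0.01 (95% interval -0.34 to 0.33, adjusted p = 0.984 by limma). A further probe set that the annotation assigns to Irs2 and a second gene was not used. The change of Irs2 was 0.79 below that of Irs1 on the log2 scale. Within arrays the Irs2 signal minus the Irs1 signal was -1.03, -1.19 and -1.02 after withdrawal and -0.40, -0.17 and -0.29 with continuous NTBC. These differences were fully separated between groups (exact two-sided permutation p = 0.1, the smallest possible), and with the mean of the Irs1 probe sets the gap in change was -0.63.

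Insr had log2 signals of 9.44, 9.40 and 9.25 after withdrawal and 9.46, 9.20 and 9.15 with continuous NTBC. The highest value of all 6 was on a continuous array, and the groups overlapped. The change was 0.09 (95% interval -0.24 to 0.43, adjusted p = 0.756 by limma), and after quantile normalization it was -0.03.

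**Figure D3:**
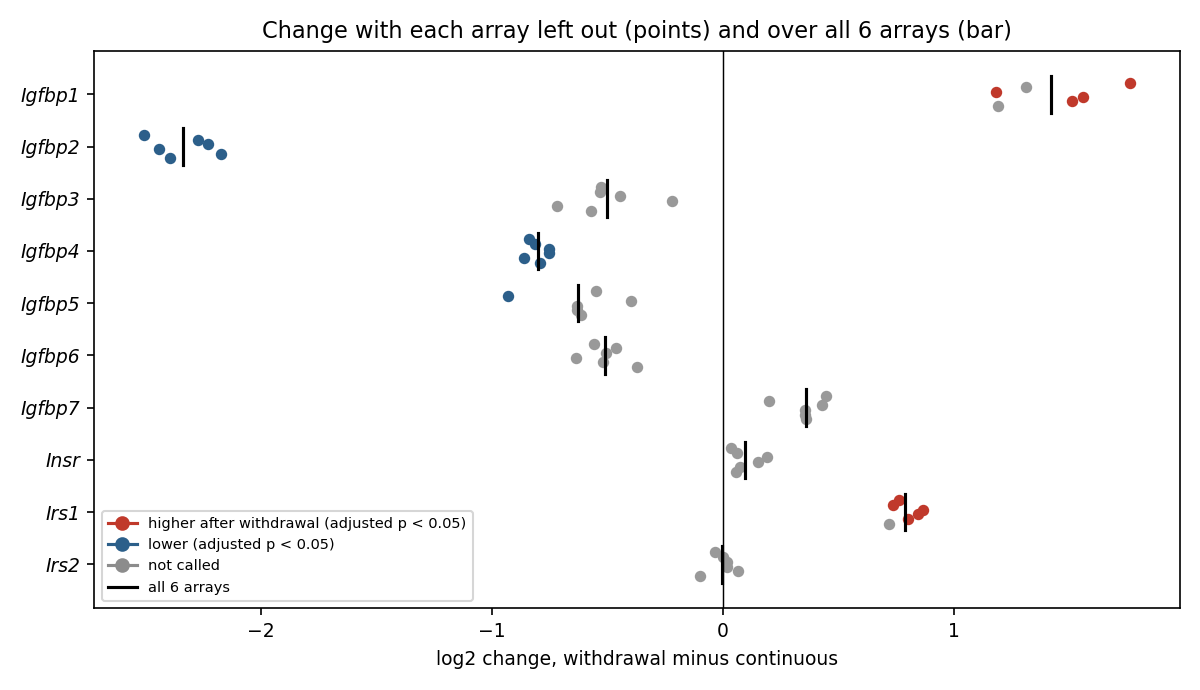
Log2 change of the 10 genes (horizontal axis) with each of the 6 arrays left out in turn (points) and over all arrays (black bar). Coloured points passed the adjusted threshold, grey points did not. All points of Igfbp2 and Igfbp4 are coloured, 2 of Igfbp1 and 1 of Irs1 are grey, and Igfbp5 has 1 coloured point at -0.93.

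The stretches before the start sites of Igfbp1, Igfbp2, Irs1 and Irs2 are shown because these genes mark the contrasts above, a rise and a fall among the carriers and a rise and no detected change among the substrates. Each has the 250 bases before the RefSeq start site (GRCm38.p6), read 5′ to 3′ on the gene's strand. They lie at chr11:7197537-7197786 (plus strand) for Igfbp1, chr1:72824230-72824479 (plus strand) for Igfbp2, chr1:82291440-82291689 (minus strand) for Irs1 and chr8:11008930-11009179 (minus strand) for Irs2. Capitals mark matches, on either strand, to TGTTTAC (forkhead), CAAAACA (core of insulin response elements) or TGATGNAA (C/EBP-ATF response element). They also mark TGACNNNGC (core of the antioxidant response element) and ACGTG (core of the hypoxia response element).
Igfbp1: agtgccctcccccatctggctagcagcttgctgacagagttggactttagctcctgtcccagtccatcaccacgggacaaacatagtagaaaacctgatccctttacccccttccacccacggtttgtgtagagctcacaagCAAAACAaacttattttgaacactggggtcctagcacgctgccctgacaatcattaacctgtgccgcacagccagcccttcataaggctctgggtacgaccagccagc
Igfbp2: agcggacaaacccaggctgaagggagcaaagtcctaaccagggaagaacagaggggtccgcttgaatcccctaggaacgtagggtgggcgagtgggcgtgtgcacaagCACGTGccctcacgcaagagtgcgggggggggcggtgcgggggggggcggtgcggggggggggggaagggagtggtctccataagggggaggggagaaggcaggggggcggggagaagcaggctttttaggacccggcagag
Irs1: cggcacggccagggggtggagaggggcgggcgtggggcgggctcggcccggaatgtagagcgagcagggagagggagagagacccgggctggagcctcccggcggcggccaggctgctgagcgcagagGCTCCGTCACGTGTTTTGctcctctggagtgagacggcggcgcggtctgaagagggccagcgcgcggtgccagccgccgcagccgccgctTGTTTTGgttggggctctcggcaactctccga
Irs2: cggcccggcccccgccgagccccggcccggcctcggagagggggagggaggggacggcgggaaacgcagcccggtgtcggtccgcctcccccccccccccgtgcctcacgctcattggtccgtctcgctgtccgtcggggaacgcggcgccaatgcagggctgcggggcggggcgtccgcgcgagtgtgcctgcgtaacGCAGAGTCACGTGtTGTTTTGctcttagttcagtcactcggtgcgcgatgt

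In this window Igfbp1 held 1 match, to CAAAACA, which begins 108 bases before the start site. Irs1 held CAAAACA matches at 111 and 32 bases before the start and Irs2 held a match at 37 bases before it, all on the opposite strand. Of 32851 mouse promoter windows of the same table, which reach 50 bases past the start, 6.28% held CAAAACA. In Irs1 and Irs2 a match to the antioxidant response element core, which 12.4% of the windows held, overlaps the palindrome CACGTG. That palindrome gives ACGTG on both strands. ACGTG was held by 19.6% of the windows. The longest run shared by the Irs1 and Irs2 stretches has 10 bases, GTCACGTGTT, and covers that palindrome. Irs1, which rose, and Irs2, which did not pass, both carry matches to these 3 motifs here. Igfbp2 held ACGTG in the window shown, again within CACGTG. Its second RefSeq start site held a match to TGACNNNGC, in a window not shown. TGTTTAC and TGATGNAA, held by 3.65% and 3.97% of all windows, were in none of the windows of these genes. The absence of TGTTTAC does not say that FOXO1 has no site in these windows. Of the other genes with a window, Igfbp7 held ACGTG and Igfbp3, Igfbp4, Igfbp5 and Igfbp6 held none of the motifs. A match is a stretch of letters, and binding was not measured. In the RefSeq gene table no other protein-coding gene lies between Igfbp1 and Igfbp3 on chromosome 11, or between Igfbp2 and Igfbp5 on chromosome 1.

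Among the partners of the binding proteins, Igf1 and Igfals fell after withdrawal and no gene rose, out of 15 measured of 17 listed. The list held the ligands, receptors, acid-labile subunit, proteases and mRNA binders of the IGF system, with a median log2 change of -0.14. Igf1, the hormone itself, had log2 signals of 8.84, 8.95 and 8.61 after withdrawal and 10.64, 9.91 and 10.09 with continuous NTBC. All withdrawal arrays lay below all continuous arrays, and Igf1 was 2.66-fold lower (log2 change -1.41, SE 0.20, adjusted p = 0.00192 by limma). Igfals, the acid-labile subunit, had 5.72, 5.91 and 5.78 after withdrawal and 7.89, 7.88 and 7.69 with continuous NTBC. Its groups were likewise separate, and it was 4.05-fold lower (log2 change -2.02, SE 0.15, adjusted p = 3.31e-05 by limma). Both passed under each of the 15 alternatives run for them. Of the ternary complex, the hormone and the subunit had thus fallen at the RNA level, while Igfbp3 had not passed.

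**Figure D4:**
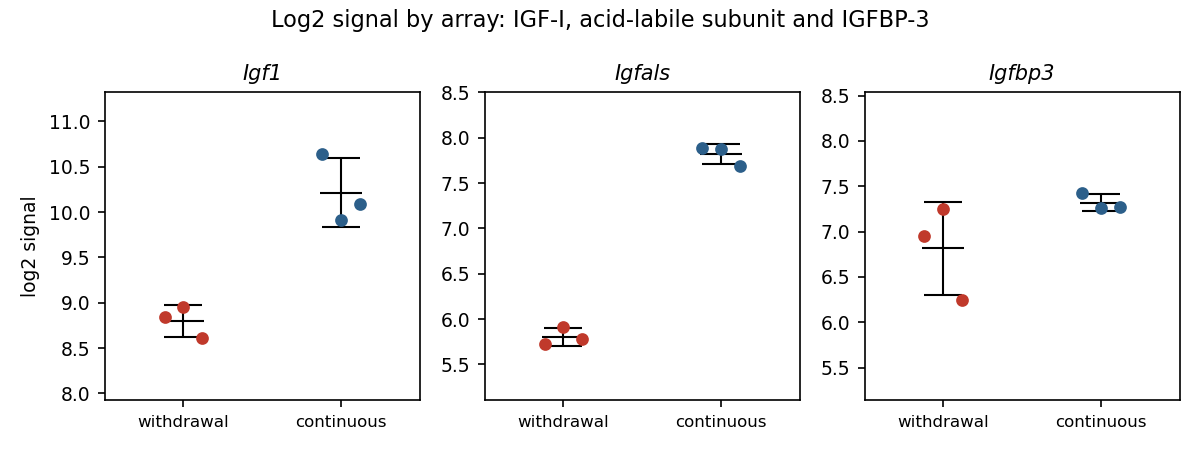
Log2 signal (vertical axis) by array for the 3 genes of the circulating ternary complex, with the withdrawal arrays in red on the left, the continuous NTBC arrays in blue on the right, and the mean and SD as bars. All 3 genes have groups that do not overlap, but for Igfbp3 the groups are only 0.01 apart.

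The remaining partners did not pass. Igf2, the fetal growth hormone, had 6.47 ± 0.39 after withdrawal and 6.06 ± 0.13 with continuous NTBC (log2 change 0.41, adjusted p = 0.250 by limma). Igf1r, the IGF-I receptor, had a change of 0.02 (95% interval -0.31 to 0.34), and Igf2r, the receptor that clears IGF-II, of 0.40 (95% interval 0.05 to 0.74, adjusted p = 0.152 by limma). The Igf2r arrays were separate, with 8.23, 8.30 and 7.93 after withdrawal against 7.84, 7.69 and 7.74 with continuous NTBC. Pappa, the protease that cuts IGFBP-4, had a change of -0.36 (adjusted p = 0.188 by limma), and Stc1 and Stc2, its inhibitors, of -0.13 and -0.14. Ide, which degrades insulin, had a change of 0.25 with a 95% interval of -0.31 to 0.81.

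Below the receptor, 11 of 48 measured insulin signalling genes rose and 1 fell, of 58 listed, where 6.21% of all probe sets were higher and 3.20% lower. The split depended on the scaling. After quantile normalization 7 rose and 4 fell, beside 1890 higher and 1351 lower of all 34472 probe sets. With dim probe sets left out 14 of 45 rose and 4 fell, beside 2731 higher and 1289 lower of 17236. The median log2 change of the list was 0.06, and -0.03 after quantile normalization. Pik3r3, a regulatory subunit of phosphoinositide 3-kinase, rose most. Its log2 signal was 6.72, 6.69 and 6.25 after withdrawal and 4.94, 4.62 and 5.11 with continuous NTBC, a 3.17-fold difference (SE 0.19 on the log2 scale, adjusted p = 4.68e-04 by limma). Inppl1, which encodes the lipid phosphatase SHIP2 that opposes the kinase, rose 2.04-fold. Srebf1, the lipogenic transcription factor that insulin induces in liver, fell, with 7.36, 7.50 and 7.25 after withdrawal and 8.82, 8.22 and 8.27 with continuous NTBC (log2 change -1.07, SE 0.19, adjusted p = 0.00565 by limma). In both of those alternatives Grb14, Pik3r1 and Phlpp1 were lower as well. Other genes that rose, named after their values were seen, were the catalytic subunits Pik3ca (0.63) and Pik3cb (0.78), the kinases Pdpk1 (0.70), Gsk3b (0.84) and Map2k1 (0.61), the GTPase Rheb (0.83), the translation repressor Eif4ebp1 (0.82), the ubiquitin ligase Cbl (0.55) and the phosphatase Ptpn2 (0.52). Of these Pik3ca, Map2k1, Cbl and Ptpn2 did not pass after quantile normalization. Akt1 (0.33), Akt2 (0.11) and Foxo1 (0.15) did not pass. The count called was 4 without withdrawal replicate 1, and 7 without withdrawal replicate 2 or without continuous replicate 3. Pik3r3, Inppl1, Gsk3b and Srebf1 passed with any 1 array left out.

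The liver genes listed as FOXO1 targets, a list without Igfbp1 and Irs2, numbered 20, and 19 had a probe set. Whether FOXO1 acts on each of them was not tested. Of the 19, 5 rose and 3 fell, where 6.21% of all probe sets were higher and 3.20% lower. Which direction had more genes depended on the scaling, with 3 higher and 4 lower after quantile normalization and 6 higher and 2 lower after median centring. Over the array 1890 of 34472 probe sets were higher and 1351 lower after quantile normalization, and 2393 and 708 after median centring. The median log2 change of the list was 0.05, and -0.01 after quantile normalization. Pdk4, which shuts off pyruvate oxidation in fasting, rose 6.79-fold, with 9.72, 8.58 and 7.75 after withdrawal and 5.53, 6.43 and 5.80 with continuous NTBC (adjusted p = 0.00260 by limma). Mttp, which loads lipid onto lipoproteins, rose 2.33-fold (adjusted p = 4.37e-04 by limma). The other 3 that rose were Cited2 (0.82), a transcriptional coregulator, Pnpla2 (0.67), the triglyceride lipase ATGL, and Ccng2 (0.61), an atypical cyclin. The gluconeogenic enzymes fell. G6pc had 8.69, 8.55 and 7.57 after withdrawal and 9.74, 10.94 and 11.41 with continuous NTBC (5.38-fold lower, adjusted p = 0.00448 by limma), and Pck1 was 4.19-fold lower (adjusted p = 0.00553 by limma). Klf15, a transcription factor that promotes gluconeogenesis, fell by 0.73 on the log2 scale. It passed under 9 of its 15 alternatives, and in 2 of the 6 cases with an array left out. After median centring and with the replicate number as a block it did not pass. The changes of G6pc and Pck1 ran opposite to that of Igfbp1. Insulin lowers all 3 in liver, and its part in these changes was not tested. The count called was 4 without withdrawal replicate 1 or replicate 2, and 5 without continuous replicate 3. Pdk4, Mttp, G6pc and Pck1 passed with any 1 array left out, while Ccng2 passed in none of the 6 cases.

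**Figure D5:**
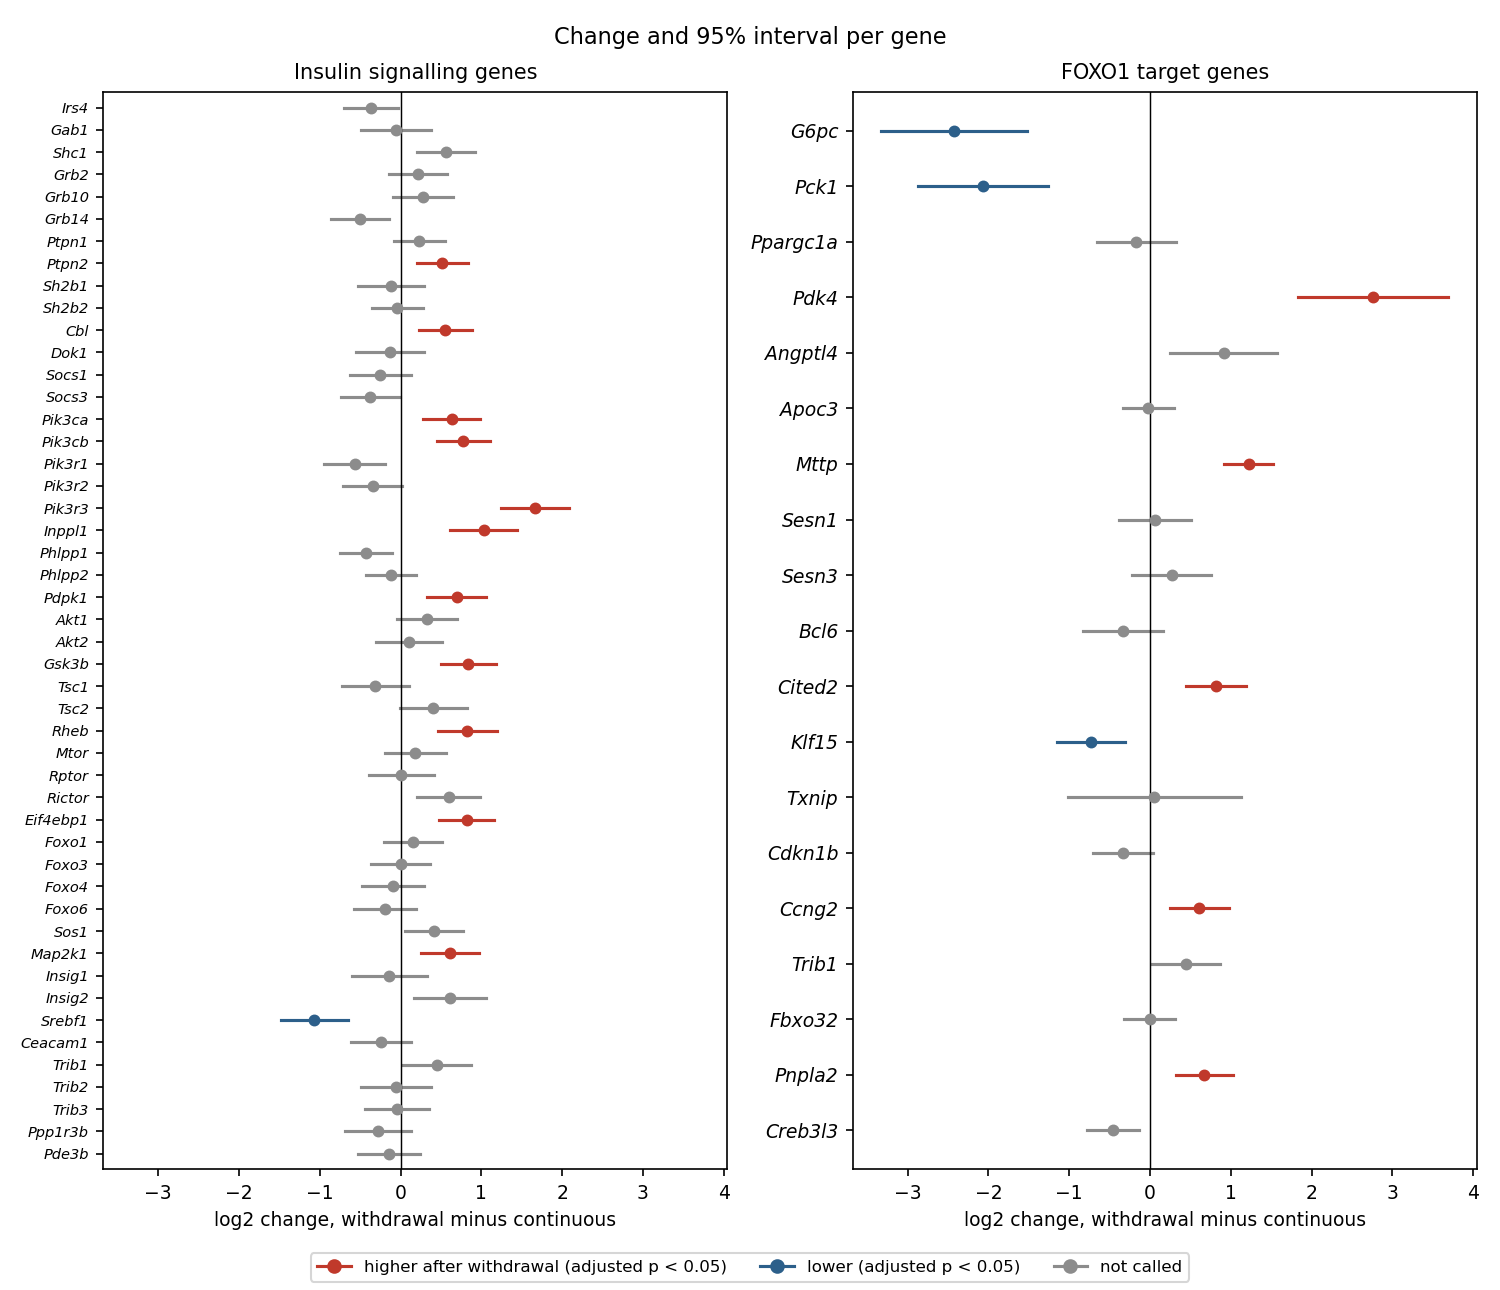
Log2 change, withdrawal minus continuous NTBC (horizontal axis), with its 95% interval from limma. The left panel has 48 insulin signalling genes and the right panel 19 genes listed as FOXO1 targets. Red marks genes that passed upward, blue downward and grey those that did not pass. In the right panel Pdk4 (2.76) and G6pc (-2.43) lie at opposite ends.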

How the data were processed

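Normalized intensities per probe set were deposited on a linear scale for 6 Affymetrix whole-transcript arrays. Per the labels' protocols, 100 ng of total liver RNA was amplified and biotin-labelled. Per the submitters' processing notes, the authors used Transcriptome Analysis Console, with the version, background correction and normalization not given in the sources used here. Values were taken as normalized, and log2 was computed. Of 34472 probe sets 23521 had 1 gene symbol, 1814 several and 9137 none here, and genes were named only from those with 1. No filter on low signals was applied, so all 10 genes entered the test. The contrast was withdrawal minus continuous NTBC, fitted with limma 3.58.1 in R 4.3.3 (4 residual and 10.2 total degrees of freedom). The number of arrays limits the precision. The fit was tested on simulated data of this comparison with 34472 probe sets, in which 200 were shifted. It recovered 49 of the 100 shifted by 1 log2 unit and 95 of the 100 shifted by 2, and made 7 false calls. These rates need not hold for the data, where 3241 probe sets passed, since the adjusted threshold depends on that share. The simulated noise was also independent between probe sets.

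The 10 genes and the other lists were chosen with earlier results of these data known. All 10 and any IGF partner could be named, from each other list the 3 genes with the smallest p-values and all called in a direction with 5 or fewer, and the 3 genes most like the gene with the largest change. Promoter sequences and gene order are from RefSeq (GRCm38.p6), with a window for 9 of the 10 genes. No genome build is stated for the array's design in those sources. Alternatives were quantile normalization, median centring, array weights, the replicate number as a block, a filter on dim probe sets, probe sets with 1 symbol only, the trend and robust options, signals raised to the lower quartile, averaging the probe sets of a gene, a 2-fold minimum, and each array left out.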

Additional observations from a re-analysis of the deposited data

How the results depend on the processing

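Over 10 genes and 15 alternatives each, 138 of 150 values kept their direction and their side of the threshold. Calls lost were those of Igfbp1 and Irs1 with an array left out, where the changes ran from 1.18 to 1.76 and from 0.72 to 0.86. With an array left out Igfbp5 ran from -0.93 to -0.40 and was called at -0.93. Igfbp6 was called with dim probe sets left out (-0.51) and with array weights (-0.64). Insr turned to -0.026 with quantile normalization. Irs2 turned to 0.093 with median centring and to 0.091 with array weights, and ran from -0.102 to 0.063 with an array left out. The cause of these shifts was not tested.

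With a 2-fold minimum 1178 probe sets passed, as did 1 of the 10 genes in each direction. So did 3 insulin signalling genes and 4 genes listed as FOXO1 targets. Array weights gave 5588 probe sets. With an array left out, probe sets past the threshold ran from 1454 to 4210. Among the 10 genes, those higher then ran from 0 to 2 and those lower from 2 to 3. Insulin signalling genes past the threshold ran from 4 to 16, and genes listed as FOXO1 targets from 4 to 8. The labels do not say that the replicate number pairs the arrays. Same-numbered arrays had correlations of deviations from the group means of 0.16, -0.12 and 0.22. Withdrawal replicates 1 and 3 correlated best with the continuous array of their own number, and withdrawal replicate 2 with continuous replicate 1. So few values cannot decide whether the arrays were paired. With the number as a block 3298 probe sets passed and the calls of the 10 genes were those reported (Igfbp1 1.42 with adjusted p = 0.0191, Irs1 0.79 with adjusted p = 0.0125). Signal over background cannot be judged without detection flags.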

Other observations

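Relatives of these genes outside the list did not pass, and were looked at after the values above were seen. Igfbpl1, a gene related in sequence to Igfbp7, had log2 signals of 5.43, 5.30 and 6.01 after withdrawal and 5.75, 5.44 and 6.17 with continuous NTBC (log2 change -0.21, 95% interval -0.73 to 0.31, adjusted p = 0.637 by limma). The groups overlapped. Irs3, a substrate found in rodents, had 5.40, 5.32 and 5.39 after withdrawal and 5.17, 5.52 and 5.58 with continuous NTBC (log2 change -0.05, adjusted p = 0.869 by limma). Irs4 had 4.44, 4.50 and 4.52 after withdrawal and 4.66, 4.98 and 4.93 with continuous NTBC, groups that did not overlap, with a log2 change of -0.37 (95% interval -0.70 to -0.04, adjusted p = 0.165 by limma).

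Cholangiocyte markers (0 of 5 passed in limma, 1 at an unadjusted p under 0.05) and Kupffer cell and macrophage markers (0 of 10 passed, 0 at an unadjusted p under 0.05) had summed signals that overlapped between groups. The share of all probe sets under that unadjusted cut was not computed. Among cholangiocyte markers Sox9 passed upward under 3 of its 15 alternatives and Krt7 downward under 2. Among macrophage markers Cd5l passed upward under 1. Of 7 hepatocyte markers 1 was lower, Cps1, the urea cycle's entry enzyme (-1.08), where 3.20% of all probe sets were lower. The other 6 did not pass in limma, and of the 7 changes 2 were positive and 5 negative. Serpina1a passed under 8 of its 15 alternatives and Fgb under 1. The summed linear signal, in which the brightest genes weigh most, was 50534 to 55646 after withdrawal and 58565 to 62679 with continuous NTBC.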
